A study of Mus musculus with 4 samples.

Results

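The light chains of myosin II and the enzymes that switch them on and off were followed in fetal mouse lung through 10 genes. They are the essential light chain gene *Myl6*, the regulatory light chain genes *Myl9*, *Myl12a* and *Myl12b*, the kinase genes *Mylk*, *Rock1* and *Rock2*, the myosin phosphatase genes *Ppp1r12a* and *Ppp1cb*, and the GTPase gene *Rhoa*. They were taken by gene name from the 45706 genes counted, and all 10 were among the 18763 genes that had enough counts to be tested. RNA came from the left lung lobes of C57BL/6 embryos at E17, 2 of them wild type (*Myh10*+/+) and 2 homozygous for the L458R allele of *Myh10* (labelled *Myh10*L458R/L458R and written *Myh10*-/- here). *Myh10* encodes the heavy chain of nonmuscle myosin II-B, and the allele is a missense change found in a chemical mutagenesis screen and carried by every cell of the animal. None of the embryos was treated.

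In nonmuscle and smooth muscle myosin II, the neck of each heavy chain, next to the motor, binds an essential and a regulatory light chain. Phosphorylation of the regulatory light chain on a threonine and the neighbouring serine switches the motor on. Myosin light chain kinase, the product of *Mylk*, does this when calcium rises in the cell. The kinases ROCK1 and ROCK2 are activated by the GTPase RhoA, phosphorylate the same residues and also inhibit the phosphatase that removes the phosphate. That phosphatase consists of a catalytic subunit encoded by *Ppp1cb* and a targeting subunit, MYPT1, encoded by *Ppp1r12a*. In lung these proteins are known for the tone of airway and vascular smooth muscle and for cell shape in epithelium and mesenchyme. RNA levels carry no information on phosphorylation.

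The stretch around the phosphorylated residues is shown because it is where all the kinases act and because it shows how alike the regulatory light chain genes are. In each of the 3 genes it lies in exon 2 of 4 of the main GENCODE transcript on GRCm38. Printed 5′ to 3′ on the coding strand are the 30 coding bases 43 to 72, with the codons of threonine 19 and serine 20 in capitals, counted with the initiator methionine as residue 1.
Myl9, chr2:156778587-156778616, plus strand: ccccagagggctACGTCCaatgtcttcgcc
Myl12a, chr17:70996809-70996838, minus strand: cctcagcgcgcaACCTCCaatgtgttcgcc
Myl12b, chr17:70977160-70977189, minus strand: cctcagcgcgcaACCTCCaatgtgttcgcc
*Myl12a* and *Myl12b* had 0 differences over these bases and *Myl9* differed from them at 6. Over the whole coding sequence *Myl12a* and *Myl12b* were 96.5% identical, and *Myl9* was 85.7% identical to *Myl12a* and 86.4% to *Myl12b*. The essential light chain gene *Myl6* shared 50.3% to 50.7% of aligned coding bases with the 3 regulatory genes.

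A regulatory element of a different kind was found near a start of 2 of the light chain genes. The CArG box, bound by serum response factor, reads CC, then 6 bases that are each A or T, then GG, and has the same form on both strands. In the RefSeq table of promoter windows (GRCm38.p6, 250 bases before to 50 after each start), 1.63% of 32851 windows held one. Of the 10 members 9 had a window and *Myl6* and *Rhoa* had several starts, giving 11 windows. A CArG box was found in 2 of these, that of *Myl9*, beginning 161 bases before the start, and 1 of those of *Myl6*, beginning 50 bases before the start. This *Myl6* start lies inside the gene, whose first base on the minus strand is 128494145. Each is shown within 40 bases, with the box in capitals.
Myl9, chr2:156775288-156775327, plus strand: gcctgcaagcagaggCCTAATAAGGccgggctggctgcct
Myl6, chr10:128493035-128493074, minus strand: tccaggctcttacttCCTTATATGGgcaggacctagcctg
No such run was found in the windows of *Myl12a*, *Myl12b*, *Mylk*, *Rock2*, *Ppp1r12a*, *Ppp1cb* and *Rhoa* or in the other window of *Myl6*. These matches describe the sequence and say nothing of binding in lung.

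Counts on genes summed to between 19116971 and 23156026 in the *Myh10*+/+ lungs and to between 27573824 and 32055306 in the *Myh10*-/- lungs, and the members had mean counts between 2458 and 19572 per lung, so that the spread between lungs and not counting error set the precision. The missense allele does not remove the transcript, so *Myh10* RNA is no check of the genotype labels. Lung markers were present in every lung, *Nkx2-1* at 434 to 455 CPM (CPM, the count of a gene scaled to a common library total) and *Sftpc* at 3874 to 5812 CPM. Summed markers of other tissues differed between genotypes, and heart muscle genes summed to 261 and 327 CPM in *Myh10*+/+ against 210 and 192 CPM in *Myh10*-/- lungs.

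None of the 10 genes differed between genotypes at an adjusted p-value under 0.05. The call was 0 of 10 with the quasi-likelihood test of edgeR, where 1.64% of all tested genes were called (1.34% lower and 0.298% higher in *Myh10*-/- lungs), and 0 of 10 with DESeq2, where 1.87% were called. At an unadjusted p under 0.05, edgeR picked 1 of 10, *Rock2*, against 16.5% of all tested genes. The fitted changes ran from -0.11 to 0.15 on the log2 scale, and the 95% intervals of all 10 lay between a change of -15.9% (*Myl9*) and one of 23.7% (*Ppp1r12a*). The median log2 fold change was -0.03 over the 10 genes and 0.00 over all tested genes. Both lungs of 1 genotype lay outside the range of the other for 3 of 10 genes, with *Rhoa* lower and *Rock1* and *Rock2* higher in *Myh10*-/- lungs, while 48.3% of all tested genes had groups that did not overlap.

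**Figure D1:**
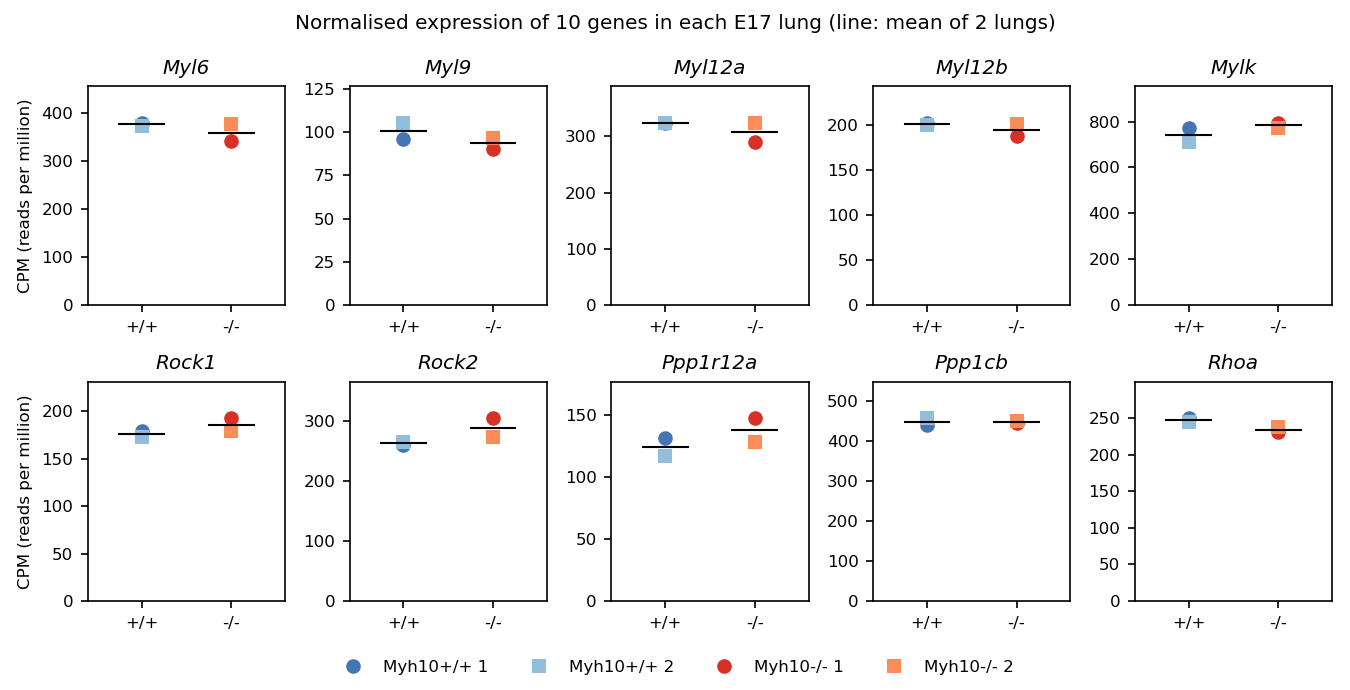
Each panel plots the CPM (vertical axis, from 0) of one gene in the 2 *Myh10*+/+ lungs and the 2 *Myh10*-/- lungs, with a line at the mean of each genotype. The points of a gene lie close together in all panels, and only *Rhoa*, *Rock1* and *Rock2* have groups that do not overlap.

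*Myl6* (ENSMUSG00000090841, chromosome 10 from 128490860 to 128494145, minus strand) encodes the essential light chain, which stiffens the lever arm of the motor. Its level was 380 and 372 CPM in *Myh10*+/+ lungs and 342 and 376 CPM in *Myh10*-/- lungs. The second *Myh10*-/- lung lay between the *Myh10*+/+ lungs and the first lay below them. The log2 fold change was -0.07 ± 0.06 (SE, 2 lungs per genotype), with an edgeR adjusted p of 0.601.

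*Myl9* (ENSMUSG00000067818, chromosome 2 from 156775420 to 156781658, plus strand) encodes the regulatory light chain typical of smooth muscle. It had 96.1 and 105 CPM in *Myh10*+/+ lungs and 90.1 and 96.7 CPM in *Myh10*-/- lungs. The groups overlapped, and the log2 fold change of -0.11 ± 0.06 (SE) was the lowest of the 10 (edgeR, adjusted p = 0.436). Markers of smooth muscle, which include *Acta2* and *Myh11*, summed to 857 and 904 CPM in *Myh10*+/+ lungs and to 841 and 836 CPM in *Myh10*-/- lungs, and 0 of 10 passed the edgeR test after adjustment or at an unadjusted p under 0.05.

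*Myl12a* and *Myl12b* encode the regulatory light chains found in most nonmuscle cells and are neighbours on the minus strand of chromosome 17, *Myl12b* (ENSMUSG00000034868) from 70973133 to 70990890 and *Myl12a* (ENSMUSG00000024048) from 70993656 to 71002878. *Myl12a* had 324 and 323 CPM in *Myh10*+/+ lungs and 290 and 324 CPM in *Myh10*-/- lungs. *Myl12b* had 203 and 200.4 CPM in *Myh10*+/+ lungs and 189 and 202 CPM in *Myh10*-/- lungs. In both genes 3 lungs nearly coincided and the first *Myh10*-/- lung was the lowest. The log2 fold change was -0.08 ± 0.06 (SE) for *Myl12a*, with an edgeR adjusted p of 0.545, and -0.05 ± 0.05 (SE) for *Myl12b*, with one of 0.687.

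Among the kinases, *Mylk* (ENSMUSG00000022836, chromosome 16 from 34745210 to 35002420, plus strand), the gene of myosin light chain kinase, had 773 and 713 CPM in *Myh10*+/+ lungs and 796 and 772 CPM in *Myh10*-/- lungs. The groups overlapped, since the second *Myh10*-/- lung and the first *Myh10*+/+ lung had almost the same value. The log2 fold change was 0.08 ± 0.08 (SE), with an edgeR adjusted p of 0.660.

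*Rock1* (ENSMUSG00000024290, chromosome 18 from 10064401 to 10182045, minus strand) and *Rock2* (ENSMUSG00000020580, chromosome 12 from 16894895 to 16987823, plus strand) encode the kinases ROCK1 and ROCK2 and share 66.4% of their aligned coding bases. *Rock1* had 179 and 173 CPM in *Myh10*+/+ lungs and 193 and 179 CPM in *Myh10*-/- lungs. *Rock2* had 260.3 and 266 CPM in *Myh10*+/+ lungs and 304 and 272 CPM in *Myh10*-/- lungs. For both genes the *Myh10*-/- lungs were the highest, but the second of them stood only just above the *Myh10*+/+ lungs. The log2 fold change was 0.08 ± 0.05 (SE) for *Rock1*, with an edgeR adjusted p of 0.477. For *Rock2* it was 0.13 ± 0.06 (SE), a change of 9.63% with a 95% interval of 0.72% to 19.3%, an unadjusted p of 0.036 and an edgeR adjusted p of 0.262. Corrected for GC content and exon length, the fold change of *Rock1* turned to -0.04 and that of *Rock2* shrank to 0.03.

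Without correction for GC content and exon length, the phosphatase subunits had the highest fold change of the 10 genes and the one nearest to 0. *Ppp1r12a* (ENSMUSG00000019907, chromosome 10 from 108162193 to 108284475, plus strand), which encodes MYPT1, had 131 and 117 CPM in *Myh10*+/+ lungs and 147 and 128 CPM in *Myh10*-/- lungs. The groups overlapped, and the log2 fold change of 0.15 ± 0.07 (SE) was the highest of the 10 (edgeR, unadjusted p = 0.058, adjusted p = 0.319). *Ppp1cb* (ENSMUSG00000014956, chromosome 5 from 32458843 to 32517433, plus strand), the gene of the catalytic subunit, had 440.0 and 457 CPM in *Myh10*+/+ lungs and 444 and 449 CPM in *Myh10*-/- lungs. Both *Myh10*-/- lungs fell between the *Myh10*+/+ lungs. Its log2 fold change was -0.01 ± 0.05 (SE), with an edgeR adjusted p of 0.972 and a 95% interval of -8.07% to 7.87%. Corrected for GC content and exon length, the fold change of *Ppp1cb* was -0.10, the lowest of the 10 (edgeR adjusted p = 0.371).

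*Rhoa* (ENSMUSG00000007815, chromosome 9 from 108306129 to 108337934, plus strand) encodes the GTPase upstream of ROCK. Its level was 250 and 245 CPM in *Myh10*+/+ lungs and 231 and 237 CPM in *Myh10*-/- lungs. The *Myh10*-/- lungs were both below the *Myh10*+/+ lungs, and the replicates differed by 1.83% and 2.65%. The log2 fold change was -0.08 ± 0.04 (SE), a change of -5.34% with a 95% interval of -11.5% to 1.28% (edgeR, adjusted p = 0.408).

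**Figure D2:**
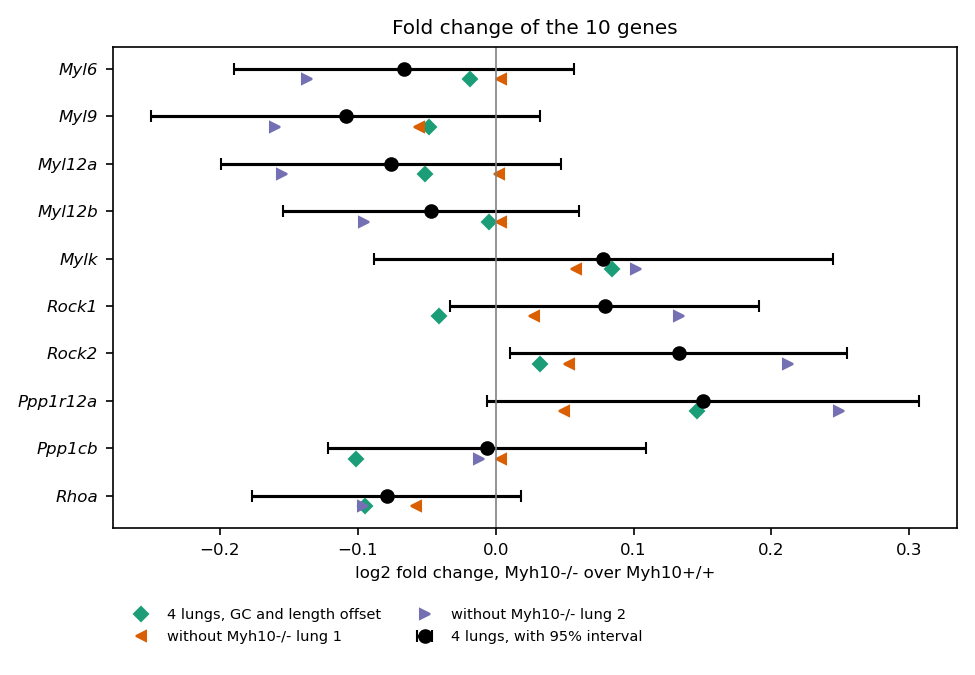
Black points give the log2 fold change of *Myh10*-/- over *Myh10*+/+ lungs for each gene (horizontal axis) with its 95% interval from edgeR, and coloured symbols give the value with an offset for GC content and exon length or without either *Myh10*-/- lung. Only the interval of *Rock2*, from 0.01 to 0.25, leaves out 0, and without the first *Myh10*-/- lung the values lie between -0.06 and 0.06.

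A single lung was at the edge for most of these genes. The first *Myh10*-/- lung was the lowest of the 4 lungs for *Myl6*, *Myl9*, *Myl12a*, *Myl12b* and *Rhoa* and the highest for *Mylk*, *Rock1*, *Rock2* and *Ppp1r12a*, 9 of the 10 genes. Over all tested genes it was the lowest or the highest lung in 61.7%. The second *Myh10*-/- lung was never an extreme among the 10 genes, and was one in 38.0% of all tested genes. The first lung deviated from the mean of the 4 lungs by -7.06% for *Myl6*, -7.91% for *Myl12a*, 10.4% for *Rock2* and 12.5% for *Ppp1r12a*.

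**Figure D3:**
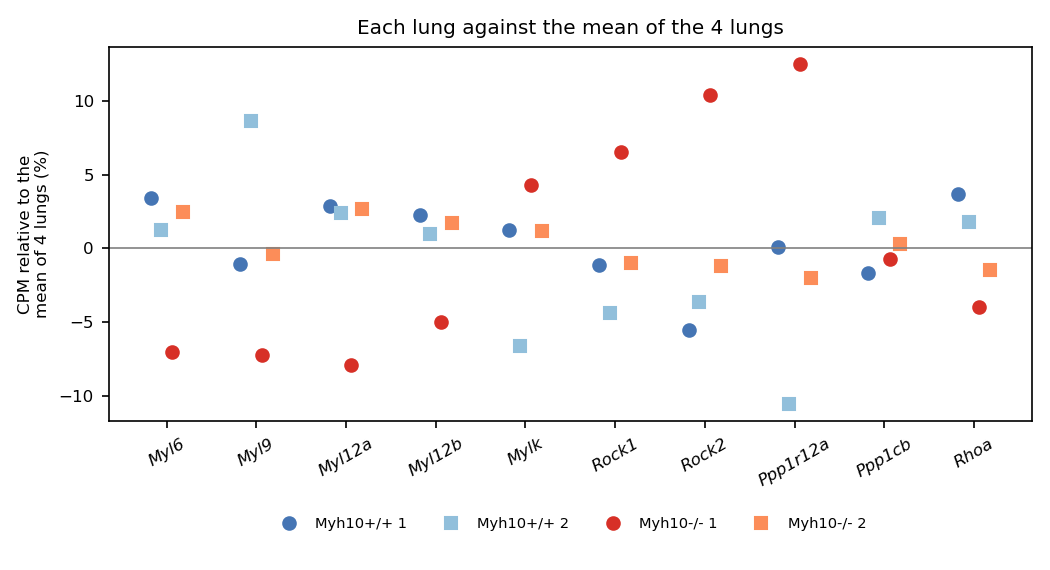
The CPM of each lung is plotted as a percentage above or below the mean of the 4 lungs (vertical axis) for each gene (horizontal axis). The first *Myh10*-/- lung is at or near the edge for all genes but *Ppp1cb*, below the mean for the light chains and *Rhoa* and above it for *Mylk*, *Rock1*, *Rock2* and *Ppp1r12a*.

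Without that lung the fold changes of *Myl6*, *Myl12a* and *Myl12b* came to 0.00, that of *Rock2* to 0.05 and that of *Ppp1r12a* to 0.05, with 0 of 10 genes called. Without the second *Myh10*-/- lung, *Rock2* (log2 fold change 0.21, edgeR adjusted p = 0.0095) and *Ppp1r12a* (0.25, adjusted p = 0.014) passed, and so did 9.73% of all tested genes. Each of these fits leaves 1 lung in a genotype, and its spread is then assumed to be that of the other genotype.

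Levels of different genes were compared per kilobase of all annotated exons of a gene joined. On this scale the order of the 10 genes, by the mean of the 4 lungs, was *Myl6* (115 CPM per kilobase), *Myl12a* (93.8), *Myl9* (83.6), *Myl12b* (71.7), *Mylk* (67.8), *Ppp1cb* (41.0), *Rhoa* (32.2), *Rock2* (19.8), *Ppp1r12a* (16.3) and *Rock1* (9.99). The 4 lungs of *Myl12a* overlapped in range with those of *Myl9*, and those of *Myl12b* with those of *Mylk*, and the other neighbours in the order had separate ranges. The order depended on the length used. Many exons joined for *Myl6* belong to transcripts other than its main one of 665 bases, and per length of the main transcript its level was 553 CPM per kilobase, followed by *Myl12a* at 163, *Rhoa* at 110, *Mylk* at 97.6, *Myl12b* at 92.6, *Myl9* at 86.1, *Ppp1cb* at 75.04, *Ppp1r12a* at 38.9, *Rock2* at 36.0 and *Rock1* at 28.1. With either length the light chains, *Mylk*, *Ppp1cb* and *Rhoa* were above *Ppp1r12a*, *Rock2* and *Rock1*.

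**Figure D4:**
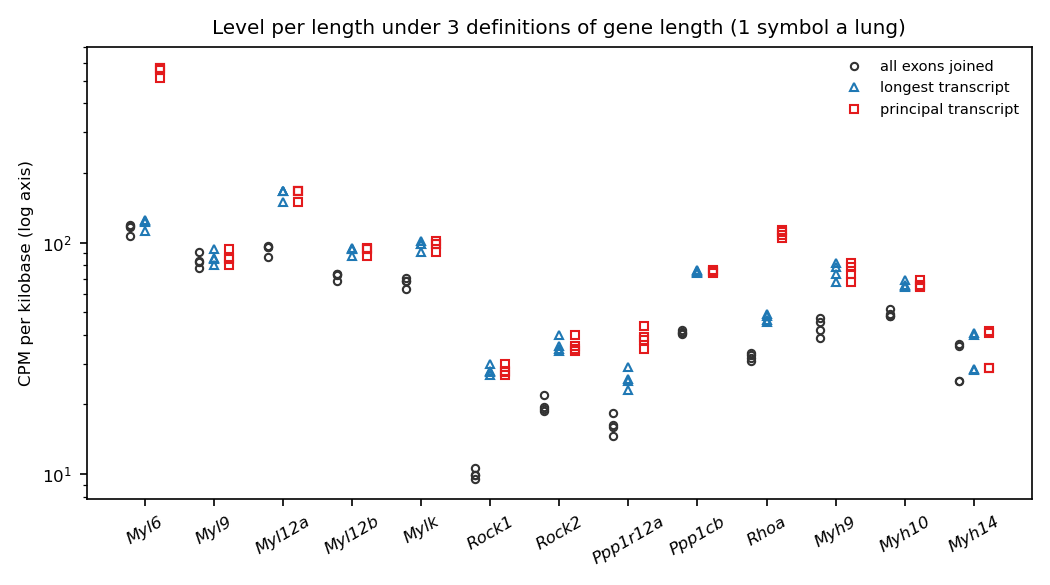
Levels in CPM per kilobase (vertical log axis) are plotted for the 10 genes and 3 heavy chains, with 1 symbol per lung and 3 definitions of gene length. The lungs of a gene cluster tightly, while *Myl6* moves from a mean of 115 with all exons joined to 553 with its main transcript.

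The shares of the regulatory light chain genes in their sum differed little between genotypes. Per kilobase, *Myl9* made up 32.7% and 35.0% of the summed level of the 3 genes in *Myh10*+/+ lungs and 33.4% and 33.0% in *Myh10*-/- lungs. *Myl12a* made up 37.6% ± 0.83 and 37.7% ± 0.64, and *Myl12b* 28.5% ± 0.78 and 29.1% ± 0.33 (SD, n = 2 each). The mean shares differed by -0.69, 0.05 and 0.64 percentage points, less than the spread between *Myh10*+/+ lungs (exact permutation test, two-sided, p = 1, 1 and 0.667, where 2 lungs against 2 cannot give less than 0.33). For *Myl9* and *Myl12b* the difference was larger than the SD of the *Myh10*-/- lungs (0.31 and 0.33). With the main transcript's length the mean shares over all lungs were 25.2% for *Myl9*, 47.6% for *Myl12a* and 27.1% for *Myl12b*.

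Ratios between members were compared per kilobase in the same way. *Rock1* had 0.53 and 0.50 times the level of *Rock2* in *Myh10*+/+ lungs and 0.49 and 0.50 times in *Myh10*-/- lungs. *Mylk*, the kinase, had 4.21 and 4.34 times the level of *Ppp1r12a*, the phosphatase subunit, in *Myh10*+/+ lungs and 3.86 and 4.29 times in *Myh10*-/- lungs. *Myl6* had 0.47 and 0.45 times the summed level of the regulatory light chains against 0.46 and 0.47 times. In exact permutation tests, two-sided, the p-values were 0.667, 0.667 and 1. The mean over all lungs depended on the length, and with the main transcript's length was 0.78 for *Rock1* to *Rock2*, 2.51 for *Mylk* to *Ppp1r12a* and 1.62 for *Myl6* to the regulatory light chains.

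The heavy chains that carry these light chains were counted in the same lungs. *Myh9*, the heavy chain of nonmuscle myosin II-A, had 609 and 585 CPM in *Myh10*+/+ lungs and 542 and 502 CPM in *Myh10*-/- lungs (log2 fold change -0.19 ± 0.07 SE, edgeR adjusted p = 0.169). *Myh10* itself had 505 and 504 CPM against 539 and 513 CPM, a log2 fold change of 0.06 ± 0.06 (SE) with an edgeR adjusted p of 0.662. *Myh14*, the heavy chain of nonmuscle myosin II-C, was the only 1 of the 4 heavy chains past the adjusted threshold. It went from 266 and 261 CPM to 184 and 183 CPM. Its log2 fold change was -0.52 ± 0.04 (SE, edgeR adjusted p = 0.00050). The smooth muscle heavy chain *Myh11* had 177 and 185 CPM against 176 and 164 CPM, with an edgeR adjusted p of 0.398. For *Myh9* and *Myh11* too, both *Myh10*-/- lungs lay below both *Myh10*+/+ lungs, and *Myh9* had an edgeR unadjusted p of 0.013. Groups did not overlap in 48.3% of all tested genes. Summed, the 4 light chains had 2.82 and 2.91 times the level per kilobase of *Myh9*, *Myh10* and *Myh14* together in *Myh10*+/+ lungs and 2.85 and 3.28 times in *Myh10*-/- lungs. The means were 2.86 ± 0.06 and 3.07 ± 0.30 (SD, n = 2 each). The difference of 0.20 was above the SD of the *Myh10*+/+ lungs and below that of the *Myh10*-/- lungs (exact permutation test, two-sided, p = 0.667).

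Beyond the 10 genes, 105 further genes of the pathway were listed by role, and 102 had enough counts to be tested. Of the 102 genes, 6 fell in *Myh10*-/- lungs and none rose, at an adjusted p under 0.05 with edgeR, where 1.34% of all tested genes fell and 0.298% rose. DESeq2 called the same 6 genes, all of them lower, and none in the pathway lists where edgeR called none. The median log2 fold change of the 102 was -0.07, with 68 below 0 and 34 above it. The genes that fell were *Myl7*, *Myl4*, *Dapk2*, *Arhgef3*, *Rtkn2* and *Ezr*. The lists were chosen with earlier results of these data known, so setting them beside all tested genes is not an independent test.

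Of 8 further myosin light chain genes, 6 were tested and 2 fell. *Myl7*, the regulatory light chain of atrial heart muscle, had 36.1 and 46.6 CPM in *Myh10*+/+ lungs and 25.9 and 26.7 CPM in *Myh10*-/- lungs (log2 fold change -0.65 ± 0.10 SE, edgeR adjusted p = 0.013). *Myl4*, the atrial essential light chain, had 23.3 and 32.7 CPM in *Myh10*+/+ lungs and 19.5 and 17.4 CPM in *Myh10*-/- lungs (-0.59 ± 0.13 SE, edgeR adjusted p = 0.040). Neither pair of groups overlapped, although the *Myh10*+/+ lungs differed more from each other than the *Myh10*-/- lungs did. Both genes also belong to the list of heart muscle markers, of which 5 of 9 tested passed with edgeR, all lower, the others being *Myh6*, *Tnnt2* and *Ryr2*. All 9 had a fold change below 0 and an edgeR unadjusted p under 0.05 (16.5% of all tested genes). DESeq2 called 6 of the 9, with *Actc1* in addition. In whole lung RNA, fewer cells of a type and less RNA per cell cannot be told apart.

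Among 13 tested kinases that can phosphorylate the regulatory light chain, *Dapk2*, a death-associated protein kinase, fell from 31.3 and 33.9 CPM to 19.8 and 25.3 CPM (log2 fold change -0.52 ± 0.10 SE, edgeR adjusted p = 0.029). The other 12 did not pass, and their log2 fold changes lay between -0.55 and 0.30. A further list of 12 genes held phosphatase subunits and inhibitors and the kinase genes *Prkg1* and *Prkg2*. None of the 12 passed with edgeR and 2 had an unadjusted p under 0.05, against 16.5% of all tested genes. The lowest p was that of *Ppp1r14c*, an inhibitor of the phosphatase, with 153 and 143 CPM in *Myh10*+/+ lungs and 128 and 133 CPM in *Myh10*-/- lungs (edgeR adjusted p = 0.115).

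Upstream of ROCK, none of 8 further GTPases of the family of RhoA and their dissociation inhibitors passed. *Rhob*, a close relative of *Rhoa*, was the lowest in p, with 169 and 179 CPM in *Myh10*+/+ lungs and 142 and 158 CPM in *Myh10*-/- lungs (log2 fold change -0.21 ± 0.06 SE, edgeR adjusted p = 0.097). Of 15 exchange factors, which load RhoA or its relatives with GTP, *Arhgef3* fell from 56.3 CPM in both *Myh10*+/+ lungs to 40.8 and 43.8 CPM (-0.41 ± 0.07 SE, edgeR adjusted p = 0.020). None of 13 GTPase activating proteins passed, and *Arhgap5*, which switches RhoA off, had the lowest p among them (log2 fold change 0.18, edgeR adjusted p = 0.113). None of 14 receptors and G proteins that act on RhoA passed either, *S1pr1* being the lowest in p at a log2 fold change of -0.24 (edgeR adjusted p = 0.065). These counts of 0 had 1, 6 and 4 genes at an unadjusted p under 0.05 for the GTPases, the activating proteins and the receptors.

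Of 18 further effectors of RhoA and ROCK, 2 fell. *Rtkn2*, which encodes a GTPase-binding protein of the rhotekin family, went from 51.3 and 48.5 CPM to 31.7 and 32.7 CPM, a log2 fold change of -0.63 ± 0.08 (SE, edgeR adjusted p = 0.0044). *Ezr*, the gene of the membrane linker ezrin, went from 234 and 238 CPM to 202 and 205 CPM, a log2 fold change of -0.21 ± 0.04 (SE, edgeR adjusted p = 0.038). Some epithelial markers were lower as well. The list summed to 8004 and 7816 CPM in *Myh10*+/+ lungs and to 5712 and 6699 CPM in *Myh10*-/- lungs, and 3 of 8 fell (*Cdh1*, *Krt8* and *Hopx*). Of the 8, 7 had a fold change below 0 and 6 an edgeR unadjusted p under 0.05 (16.5% of all tested genes). *Nkx2-1* and *Epcam* had adjusted p-values of 0.881 and 0.738 with edgeR. Most of the epithelial sum is *Sftpc*, at 5812 and 5627 CPM against 3874 and 4748 CPM, which did not pass (edgeR adjusted p = 0.173). Endothelial markers summed to 1508 and 1468 CPM against 1379 and 1335 CPM, with 1 of 6 lower (*Cldn5*). Leukocyte markers summed to 250.4 and 233 CPM against 170.4 and 205 CPM, with 1 of 5 tested lower (*Lyz2*). Mesenchymal markers summed to 5488 and 5628 CPM against 5449 and 5304 CPM, with 0 of 8 called and 1 of 8, *Tcf21*, at an unadjusted p under 0.05. Erythroid markers summed to 4257 and 5345 CPM against 3757 and 4272 CPM, with 2 of 6 lower (*Alas2* and *Hba-a2*), and skeletal muscle markers to 14.7 and 16.1 CPM against 11.6 and 11.7 CPM, with 1 of 6 tested lower (*Ckm*). At an unadjusted p under 0.05 with edgeR were 4 of 6 endothelial, 3 of 5 leukocyte, 3 of 6 erythroid and 2 of 6 skeletal muscle markers. All 6 endothelial fold changes lay below 0. No marker of any list was at 0 in all lungs. With DESeq2 none of the leukocyte, erythroid and skeletal muscle markers passed, and the 3 epithelial markers called were *Cdh1*, *Krt8* and *Cldn18*, without *Hopx*. The part of cell make-up in the fall of the 6 genes was not tested.

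**Figure D5:**
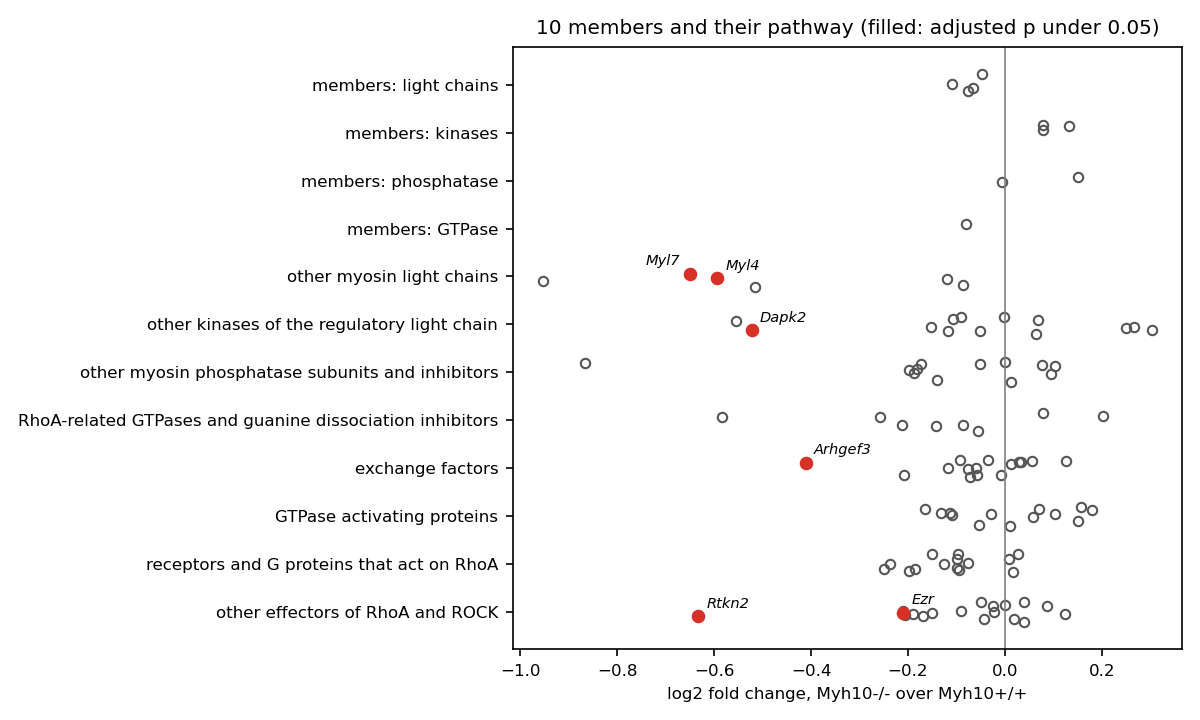
Each circle is 1 tested gene of a list described here, placed by its log2 fold change of *Myh10*-/- over *Myh10*+/+ lungs (horizontal axis) in the row of its list, and filled circles are genes at an adjusted p under 0.05. The 10 members in the upper 4 rows lie between -0.11 and 0.15 and none is filled, while 6 genes of the other lists are filled, all below 0.

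Of these 6 genes, *Arhgef3* and *Rtkn2* passed whichever lung was left out. Without the second *Myh10*+/+ lung 2 of the 102 genes passed, and *Myl7* had an edgeR adjusted p of 0.052, *Myl4* one of 0.261, *Dapk2* one of 0.082 and *Ezr* one of 0.30. *Dapk2* also missed the threshold without the first *Myh10*-/- lung (edgeR adjusted p = 0.114) and *Ezr* without the first *Myh10*+/+ lung (0.148). With all 4 lungs, *Ezr* missed it with library totals in place of TMM (edgeR adjusted p = 0.052), where 5 of the 102 genes passed. Without the second *Myh10*-/- lung 19 of the 102 genes passed, 15 of them lower.

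Some members share sequence with other genes. Cut into windows as long as a read (75 bases), the main *Myl6* transcript gave 591, of which 38.6% also occur elsewhere, in the pseudogenes *Gm10080*, *Gm11836*, *Gm5526*, *Gm5915* and *Gm8894*, and reads that align to several places were left out of the counts. Those pseudogenes together with those of *Rhoa* had at most 18 counts each in a lung. The shares were 8.53% for *Rhoa*, 3.44% for *Myl12a*, 3.53% for *Myl12b* and 1.51% for *Rock1*, and 0 for the other 5. Leaving out reads that align to several places lowers the level of *Myl6*, unlike its fold change, against the other genes. Per main transcript its level can also be too high, since reads on all its exons were counted. Exons of *Ppp1cb* overlap another gene by 1908 bases on the same strand, and those of *Myl12a* and *Rhoa* overlap genes on the opposite strand by 207 and 356 bases. In GENCODE, *Mylk* is also overlapped by 772 bases on the opposite strand, and *Myl12a* and *Myl12b* by 462 and 739 bases on the same strand, by gene models that the count table does not list.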

How the data were processed

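RNA-seq of 4 E17 left lung lobes was analysed, 2 *Myh10*+/+ and 2 *Myh10*-/-, each from its own embryo as the labels name 2 mice per genotype. The deposited table holds raw counts for each Ensembl gene and lung. The authors made them from stranded mRNA libraries (75 bp, single-end) by trimming with Reaper, aligning with STAR 2.4.0a to GRCm38 and counting with featureCounts 1.5.1, leaving out reads on several genes or several places. Whether counting used strand is not given in the sources used here, so overlapping antisense genes cannot be separated. The members and lists were chosen with earlier results of these data known.

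Genes averaging 5 or more counts per lung were tested with edgeR 4.0.16 (TMM, glmQLFit with robust = FALSE, glmQLFTest, R 4.3.3) and Benjamini-Hochberg adjustment over all of them, with a threshold of 0.05, after a check on simulated data. CPM uses TMM-scaled totals. Standard errors and 95% intervals follow from the quasi-likelihood F statistic. Shares and ratios were compared with exact permutation tests (scipy 1.17.1). Transcripts, lengths and coordinates came from GENCODE M21, and the main transcript is the APPRIS principal one. Named are all members, the 4 heavy chains and, per list, up to 5 genes in each direction at an adjusted p under 0.05, or the gene with the lowest p in a list with none. *Nkx2-1*, *Sftpc* and *Epcam* were named in addition, after their values were seen. Alternatives were DESeq2's size factors, library totals, no filter, filterByExpr, DESeq2 1.42.0, robust = TRUE, a replicate block, an offset for GC content and exon length (loess, span 0.3), both together, an adjusted p under 0.1, other gene lengths or none, and leaving out each lung. A crossed block and the main transcript's length were added after seeing the data. One pathway list is counted in the totals of pathway genes but not reported here.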

Additional observations from a re-analysis of the deposited data

How the results depend on the processing

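In the 10 other fits of all 4 lungs, 97 of 100 fold changes of the members kept their direction and stayed above an adjusted p of 0.05, and the members called remained 0 of 10 in each. The exceptions were *Rock1*, reversed to -0.0408 with the GC content and exon length offset and to -0.0407 with the replicate block and the offset together, and *Ppp1cb*, reversed to 0.0138 with library totals. The replicate block left 0 members called while calls over all genes rose from 308 to 710 and pathway calls from 6 to 10. The deviations of same-numbered lungs correlated at -0.21 over 18763 genes and at -0.02 over the 18114 outside X and Y, so no pairing by number was assumed, and with the crossed block 415 genes, 5 pathway genes and 0 members were called, *Ezr* being lost (edgeR adjusted p = 0.111). With the block and the offset together the counts were 848, 12 and 0.

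Calls over all genes were 1162 without a filter, 474 with robust = TRUE and 696 at an adjusted p under 0.1, and pathway calls were 14 without a filter. Library totals gave 233 lower and 111 higher genes against 252 and 56. With 1 lung left out, all-gene calls ran from 191 to 1826, pathway calls from 2 to 19 and member calls from 0 to 2. The log2 fold change then ran from -0.137 to 0.0041 for *Myl6*, -0.155 to 0.0025 for *Myl12a*, -0.0956 to 0.0038 for *Myl12b* and -0.0326 to 0.0208 for *Ppp1cb*. Their signs turned without the first *Myh10*-/- lung, and that of *Ppp1cb* also without the second *Myh10*+/+ lung. Other lengths or none left the direction of the differences in shares and level ratios, except for the *Myl12a* share (0.051 to -0.0048 with either transcript length and -0.17 with none). With 1 lung left out, the difference ran from -1.84 to 0.45 percentage points for the *Myl9* share, -0.54 to 0.64 for *Myl12a* and 0.085 to 1.195 for *Myl12b*. For the ratios it ran from -0.032 to -0.0046 for *Rock1* to *Rock2*, -0.42 to 0.019 for *Mylk* to *Ppp1r12a*, -0.0072 to 0.015 for *Myl6* to the regulatory light chains and -0.0090 to 0.41 for light to heavy chains. Only the differences of *Myl12b* and of *Rock1* to *Rock2* kept 1 sign with each lung left out.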
